A study of Homo sapiens with 12 samples.

Results

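The genes of mitosis described here are 58 named genes that build or control the spindle, the kinetochore, the condensed chromosome and cell division. They were taken by symbol from the 28813 rows of the authors' normalized gene table and sorted into 11 classes by the role of their products. All 58 had enough reads to be tested, and they lie on 20 chromosomes. The samples were cultures of MKL-1, a human line derived from a Merkel cell carcinoma, a neuroendocrine cancer of the skin. Treated cells received 3 µM EPZ011989, an inhibitor of EZH2, the histone methyltransferase of the Polycomb complex PRC2, in 1% ethanol. Vehicle cells received 1% ethanol without the compound. Both arms were taken at day 6 and at day 12, with 3 libraries in each of the 4 groups, and were split into fresh medium every 3 days, so all 4 groups share the line, the solvent and the passaging. The line is 1 tumour line, and nothing here separates its response from that of other Merkel cell carcinomas. Whether the libraries of one group are separate cultures is not stated in the labels, so each p-value reflects spread among these libraries that may be technical in origin.

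Mitosis begins when cyclin B and CDK1, freed of inhibitory phosphate by CDC25 phosphatases, drive chromosome condensation and spindle assembly. Kinetochores, built on centromeres marked by the histone variant CENP-A, then hold the chromosomes on spindle microtubules while the spindle checkpoint delays the anaphase-promoting complex. Most of these genes are known to be transcribed in the late part of the cell cycle, through promoter elements called CHR (bound by the MuvB complexes, with B-MYB or FOXM1 in dividing cells and in the repressive DREAM complex in resting cells) and through CCAAT boxes, which bind NF-Y.

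The promoters of the members were compared for these 2 kinds of element. RefSeq windows (GRCh38.p14) from 250 bases before to 50 bases after each start were matched by symbol for 49 of the 58 members, in 63 windows. AURKA, BIRC5, BUB3, CENPM, FOXM1, KNL1, TPX2, TTK and UBE2C had no match. The search was for TTTGAA or TTCGAA, the core letters of CHR elements, and for CCAAT, each on both strands. TTCGAA reads the same on both strands, and matches of different motifs were counted even where they share bases. The 8 stretches below run from 100 bases before to the base before the listed start and are written along the gene's strand, with the matches in capitals (ATTGG is CCAAT on the other strand). The first 6 are shown because they carry the CHR letters close to the start in genes that fell 3.55- to 5.55-fold at day 12. The last 2 are CENPK and CDC25B, which together with BUB3 departed most from the rest at day 12, and BUB3 had no match.
CCNB2: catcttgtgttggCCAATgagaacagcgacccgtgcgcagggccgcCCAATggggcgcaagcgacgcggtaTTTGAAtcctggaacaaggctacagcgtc
PLK1: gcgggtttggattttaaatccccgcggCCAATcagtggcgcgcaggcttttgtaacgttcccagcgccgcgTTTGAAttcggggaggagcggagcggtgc
BUB1B: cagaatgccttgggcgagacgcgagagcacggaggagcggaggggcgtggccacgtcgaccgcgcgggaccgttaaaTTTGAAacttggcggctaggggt
CDC20: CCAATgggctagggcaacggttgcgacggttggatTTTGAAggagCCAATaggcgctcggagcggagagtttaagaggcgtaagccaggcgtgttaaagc
KIF23: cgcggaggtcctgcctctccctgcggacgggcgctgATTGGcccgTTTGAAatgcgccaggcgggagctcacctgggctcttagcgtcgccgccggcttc
NCAPG: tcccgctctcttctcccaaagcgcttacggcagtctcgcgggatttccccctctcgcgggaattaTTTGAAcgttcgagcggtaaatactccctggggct
CENPK: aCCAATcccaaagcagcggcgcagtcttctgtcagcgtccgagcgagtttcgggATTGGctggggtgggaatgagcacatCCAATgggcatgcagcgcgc
CDC25B: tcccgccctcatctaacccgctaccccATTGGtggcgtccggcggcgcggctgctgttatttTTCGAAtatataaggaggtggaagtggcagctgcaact

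The stretches lie at chr15:59105046-59105145 (plus strand) for CCNB2, chr16:23678789-23678888 (plus) for PLK1, chr15:40160969-40161068 (plus) for BUB1B, chr1:43358881-43358980 (plus) for CDC20, chr15:69414249-69414348 (plus) for KIF23, chr4:17810879-17810978 (plus) for NCAPG, chr5:65563169-65563268 (minus) for CENPK and chr20:3796210-3796309 (plus) for CDC25B. CDC25B has 4 RefSeq windows, and the one shown was chosen because it holds a match. Among the matched members, 38 of 49 (77.6%) held TTTGAA or TTCGAA in a window, against 19.5% of all 27305 genes of the same table. CCAAT was in 40 of 49 members (81.6%) against 39.7% of all genes, and both kinds stood in 1 window in 61.2% of members against 7.85% of all genes. Counted by window, the share with TTTGAA or TTCGAA was 65.1% of 63 against 16.4% of all windows. In 32 of the 38 members a match began between 60 bases before and 44 bases after the start, a range set after the positions were seen. The median log2 fold change at day 12 was -2.17 in the 38 members with TTTGAA or TTCGAA and -2.14 in the 11 without, among them CCNB1, CCNA2 and CENPE. CDC25B, which did not fall at day 12, holds both motifs, and CENPK holds 3 CCAAT matches and neither CHR form. A match is a description of letters and not evidence of binding.

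Each library held between 15994997 and 20866370 estimated reads. Levels are given as CPM, the read count normalised to library depth with edgeR's TMM factors, and errors as SD of 3 libraries. The summed marker levels below were scaled to library totals without those factors. Fold changes are log2 ratios of treated to vehicle from edgeR's quasi-likelihood test on all 12 libraries, given with a standard error (± SE), and a gene was called at a Benjamini-Hochberg adjusted p under 0.05 over the 15024 genes tested. Gene positions are those of GENCODE 29 on GRCh38. All 12 Merkel cell and neuroendocrine markers had reads, with a summed level of 3622.5 to 4199.8 CPM over the 12 libraries. Markers of other cell types were low in every group: the summed level of 6 fibroblast markers was 14.5 to 18.5 CPM in day 6 vehicle, 21.5 to 28.8 in day 6 treated, 9.59 to 14.0 in day 12 vehicle and 18.5 to 21.5 in day 12 treated libraries. The 5 endothelial markers summed to 2.94 to 3.25 CPM in day 6 vehicle, 4.50 to 6.90 in day 6 treated, 2.58 to 2.93 in day 12 vehicle and 3.25 to 5.12 in day 12 treated libraries. The 6 leukocyte markers stayed at or under 1.82 CPM and the 5 keratinocyte markers at or under 11.6 CPM, with KRT1 at 0 in every library. Fibroblast and endothelial sums were higher in treated than in vehicle libraries, and their part in the results was not tested. In the day 12 vehicle group, library 1 had the highest level for 41 of the 58 members and library 3 the lowest for 40. Those 2 libraries also differed more from each other over all genes than any other pair of one group.

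With EPZ011989 the mitotic genes were a little lower at day 6 and much lower at day 12. At day 6, 44 of 58 members fell, 0 rose and 14 were not called, while 17.0% of all tested genes fell and 17.1% rose. The median log2 fold change of the members was -0.31, against -0.02 for all genes, and 0 members had fallen 2-fold, against 0.692% of all genes. At day 12, 57 of 58 fell and 1, CDC25B, rose, while 33.2% of all tested genes fell and 33.7% rose. The median at day 12 was -2.14, against 0.02 for all genes, which is a median level 4.42-fold lower. A fall of at least 2-fold was called for 55 members against 9.09% of all genes, and of at least 4-fold for 42 members against 2.16%. In bulk RNA, fewer dividing cells and less of these RNAs in each dividing cell cannot be told apart.

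The libraries separated cleanly at day 12. All 3 treated libraries lay below all 3 vehicle libraries for 57 members, against 33.6% of all genes, and CDC25B was the member whose groups overlapped. At day 6 the treated libraries lay below the vehicle libraries for 49 members, against 27.1% of all genes, and above them for 1, CENPK. The spread of the day 12 effects was narrow: 39 members lay between -2.5 and -2.0 and 12 between -2.0 and -1.5, with 3 below -2.5 and 4 above -1.5. Class medians at day 12 ran from -1.94 for anaphase entry and -1.95 for the mitotic kinases to -2.23 for the spindle-associated proteins and -2.35 for the transcription and chromosome markers.

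**Figure D1:**
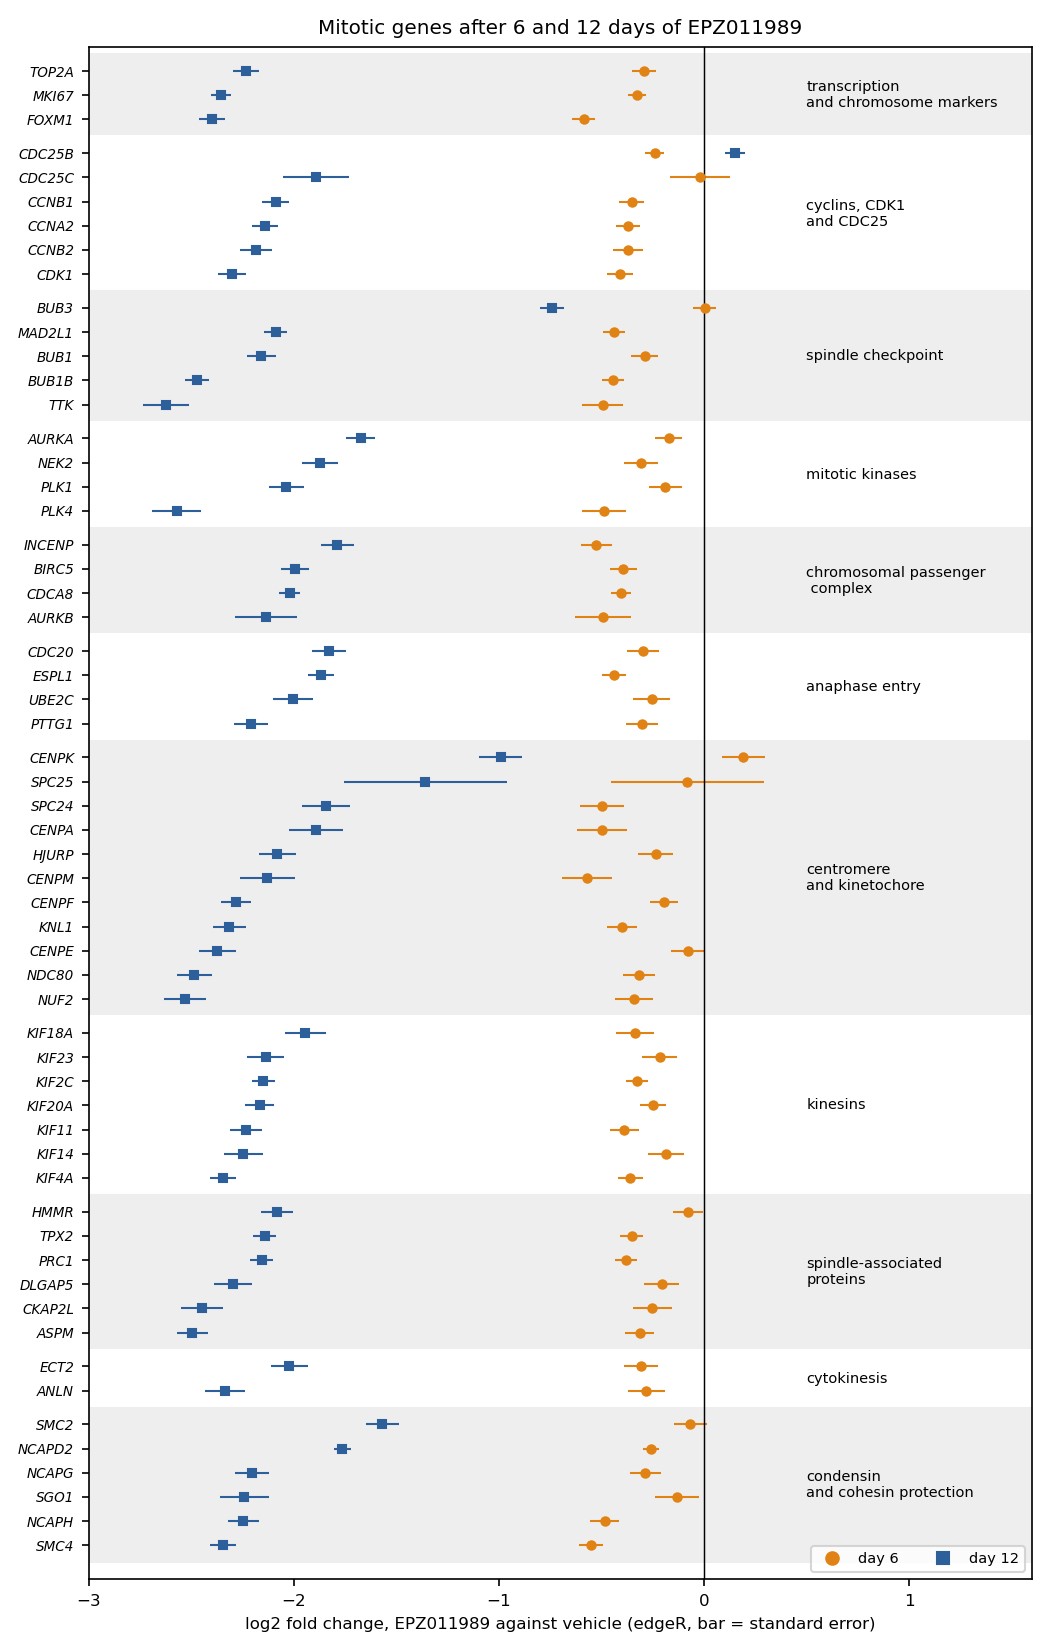
Log2 fold change of each of the 58 members, EPZ011989 against vehicle, by class (rows, sorted by day 12 value within a class), with day 6 as circles, day 12 as squares and bars for the standard error from edgeR. Day 12 values gather around the median of -2.14 except for CDC25B, BUB3 and CENPK, while day 6 values lie between -0.59 and 0.19.

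The 3 general marks of the class of transcription and chromosome markers fell at both days. FOXM1, the forkhead factor that drives late cell cycle transcription (chr12:2857681-2877155), stood at 169, 169 and 168 CPM in vehicle and 112, 111 and 115 CPM in treated libraries at day 6. Its day 12 libraries stood at 149, 153 and 163 CPM with vehicle and 26.6, 29.5 and 32.3 CPM with EPZ011989. The groups did not overlap at either day. The log2 fold change of FOXM1 went from -0.59 ± 0.06 (edgeR adjusted p = 2.53e-06) to -2.40 ± 0.06 (adjusted p = 3.22e-13). On these reads its day 6 fall was the largest of any member, with CENPM (-0.57 ± 0.12) and SMC4 (-0.55 ± 0.06) within its error. In other analyses the day 6 value of FOXM1 ran from -0.60 to -0.52, while those of PLK4 and SPC24 reached -0.68 and -0.64. TOP2A, the topoisomerase that untangles sister chromatids, fell by 0.29 on the log2 scale at day 6 and by 2.23 at day 12, from 1058 ± 99.5 to 225 ± 13.1 CPM. MKI67, the coat protein of mitotic chromosomes behind the Ki-67 stain, moved by -0.33 and then -2.35.

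Among the cyclins and their activators, 5 of 6 fell at day 12 and CDC25B rose. CCNB1, cyclin B1, which brings CDK1 into mitosis (chr5:69167010-69178245), had 128, 139.9 and 139.6 CPM in day 6 vehicle and 107, 108 and 104 CPM in day 6 treated libraries. At day 12 it had 146, 145 and 132 CPM in vehicle and 30.8, 32.6 and 36.4 CPM in treated libraries. Each treated library was below each vehicle library of its day, with log2 fold changes of -0.35 ± 0.06 and -2.09 ± 0.07 (edgeR adjusted p = 0.000568 and 2.25e-12). CCNA2, CCNB2 and the kinase CDK1 followed closely, at -0.37, -0.37 and -0.41 at day 6 and -2.14, -2.18 and -2.30 at day 12. CCNB1 fell least and CDK1 most of these 4 genes.

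The 2 CDC25 phosphatases, which activate CDK1, parted. CDC25C (chr5:138285265-138338355) had the lowest vehicle level per length (TPM) of the members with complete reads, and stood at 14.3, 12.4 and 15.2 CPM in vehicle and 14.4, 13.3 and 13.6 CPM in treated libraries at day 6, with overlapping groups and -0.02 ± 0.15 on the log2 scale. At day 12 it stood at 14.7, 15.7 and 10.9 CPM in vehicle against 3.38, 4.37 and 3.37 CPM in treated libraries, a fall of 3.71-fold. CDC25B (chr20:3786772-3806121) went the other way in time. It had 254, 254 and 265 CPM in vehicle and 214, 219 and 222 CPM in treated libraries at day 6, without overlap, a fall of 0.24 on the log2 scale (edgeR adjusted p = 0.00129). At day 12 the vehicle libraries had 232, 239 and 263 CPM and the treated libraries 279, 263 and 273 CPM. These overlapped by their nearest values, and the rise of 0.15 ± 0.05 (adjusted p = 0.0108) was lost in 4 of 22 other analyses, among them the fit with transcript lengths and the authors' own table. The change in its effect between the days, 0.39 ± 0.07 (adjusted p = 0.000243), held in all 21 others.

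In the spindle checkpoint, which holds anaphase until every kinetochore is attached, the other members of the class fell far more than BUB3. TTK, the MPS1 kinase that starts the checkpoint signal (chr6:80003887-80042527), stood at 73.1, 65.5 and 66.03 CPM in vehicle and 45.1, 48.5 and 51.9 CPM in treated libraries at day 6. At day 12 the values were 92.8, 83.3 and 67.1 CPM in vehicle and 12.4, 13.9 and 13.1 CPM in treated libraries. Its day 12 vehicle libraries were uneven, yet the lowest was far above the highest treated library. The fall of 6.17-fold (-2.62 ± 0.11, edgeR adjusted p = 3.99e-11) was the largest of the 58. PLK4 (-2.57 ± 0.12) and NUF2 (-2.53 ± 0.10) lay within its error. BUB1B, the BUBR1 subunit of the mitotic checkpoint complex, went from 181, 179 and 171 CPM to 29.3, 34.9 and 31.4 CPM at day 12, with -2.47 after -0.44 at day 6. The kinase BUB1 fell by 2.16 and MAD2L1, which binds and holds CDC20, by 2.09 on the log2 scale at day 12.

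BUB3, the adaptor that docks BUB1 and BUBR1 on kinetochores (chr10:123154277-123170467), was the exception. It stood at 237, 239 and 232 CPM in vehicle and 239.8, 242 and 228 CPM in treated libraries at day 6, interleaved, and moved by 0.00 ± 0.06 on the log2 scale (edgeR adjusted p = 0.963). At day 12 it stood at 264, 238 and 222 CPM in vehicle and 146, 149 and 138 CPM in treated libraries. Those groups did not overlap, and the fall of 1.67-fold (-0.74 ± 0.06, adjusted p = 2.93e-08) was the smallest of the 57 falls. It kept its call in all 22 other analyses, with values from -0.79 to -0.58.

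**Figure D2:**
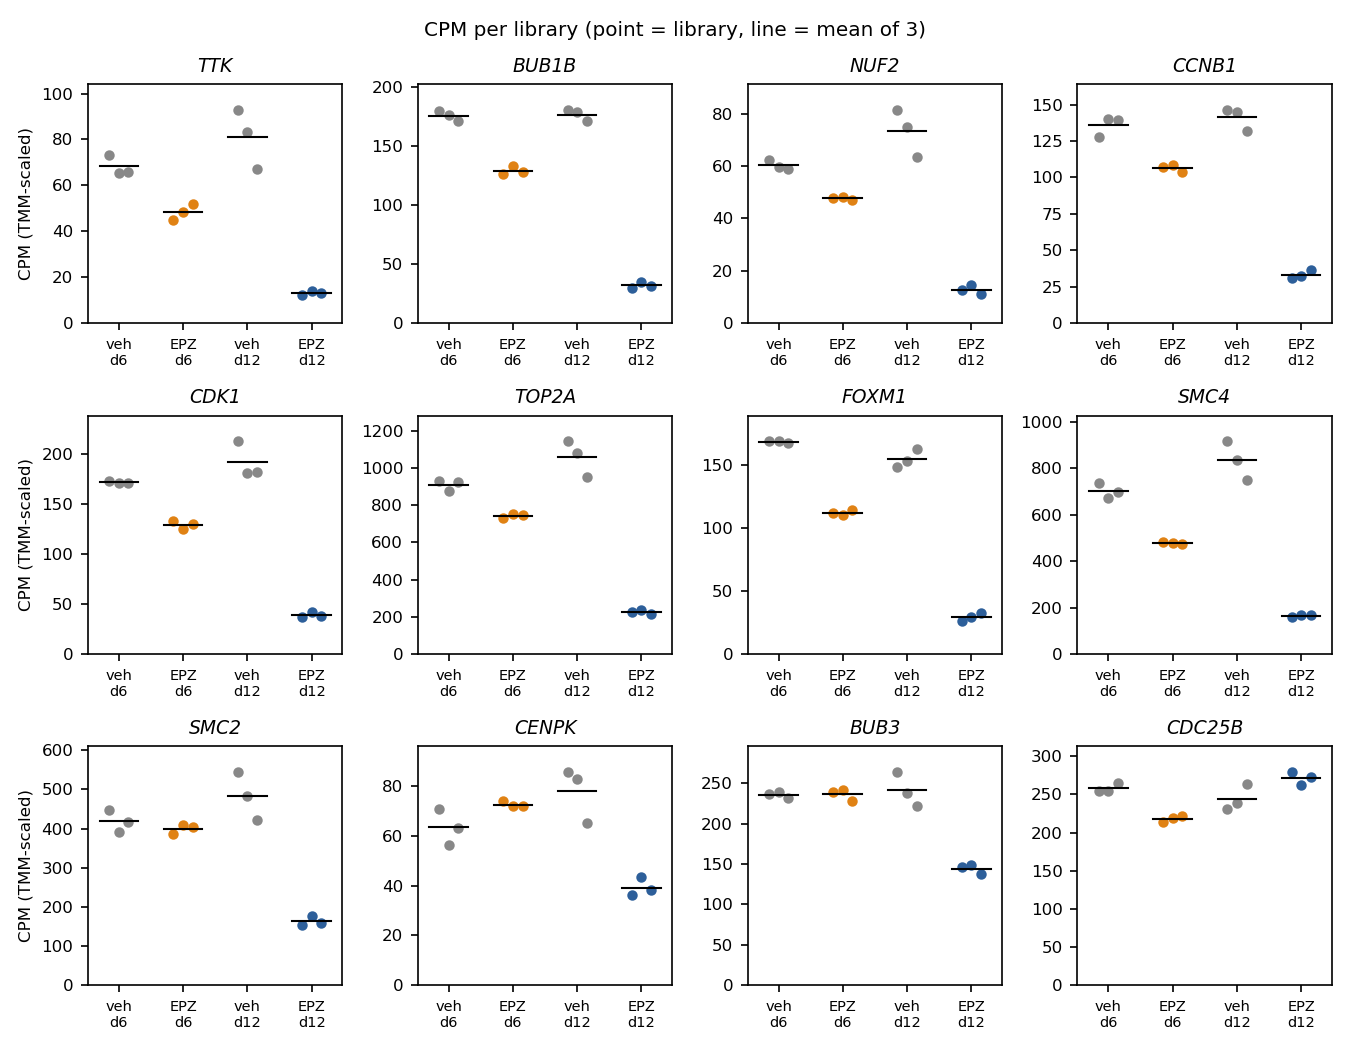
CPM in each of the 12 libraries (y axis from 0, points) for 12 members, with the mean of each group as a line, for vehicle (veh) and EPZ011989 (EPZ) at day 6 (d6) and day 12 (d12). TTK, BUB1B, NUF2, CCNB1, CDK1, TOP2A, FOXM1 and SMC4 step down at day 6 and far further at day 12, SMC2, CENPK and BUB3 were called lower at day 12 and not at day 6, and CDC25B lies lower at day 6 and not at day 12.

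The free mitotic kinases fell in the order PLK4, PLK1, NEK2, AURKA at day 12. PLK4, the master kinase of centriole duplication (chr4:127880861-127899195), went from 63.7, 62.99 and 51.1 CPM in vehicle to 11.7, 8.80 and 9.44 CPM in treated libraries, a fall of 5.95-fold (-2.57 ± 0.12). PLK1, which acts on centrosomes, kinetochores and the cleavage furrow, went from 114 ± 6.71 to 27.8 ± 3.37 CPM (-2.04 ± 0.09). NEK2, a kinase of centrosome separation, moved by -1.87 ± 0.09 and AURKA, the Aurora kinase of spindle poles, by -1.67 ± 0.07. Neighbours NEK2 and PLK1 lay within about 2 standard errors of each other, whereas PLK4 and AURKA differed by several. At day 6 PLK4 (-0.49) and NEK2 (-0.31) were called, while PLK1 (-0.19 ± 0.08, edgeR adjusted p = 0.0864) and AURKA (-0.17 ± 0.07, adjusted p = 0.0592) were not. The day 6 call of NEK2 was lost in 2 of 22 other analyses, and AURKA was called in 3.

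All 4 members of the chromosomal passenger complex, which corrects faulty attachments and then guides cytokinesis, were called lower at both days. The kinase AURKB (chr17:8204733-8210600) stood at 55.3, 57.8 and 58.9 CPM in vehicle and 40.3, 36.9 and 45.1 CPM in treated libraries at day 6. At day 12 it stood at 38.4, 49.1 and 54.7 CPM in vehicle and 8.08, 11.96 and 12.4 CPM in treated libraries, without overlap at either day. Its log2 fold change of -2.14 ± 0.15 had the widest error of the class. The scaffold INCENP fell by 0.52 and 1.79, survivin (BIRC5) by 0.39 and 1.99, and borealin (CDCA8) by 0.40 and 2.02 on the log2 scale at day 6 and day 12. The day 6 call of AURKB was lost in 5 of 22 other analyses and that of INCENP in 3, the authors' table and the length offset among them for both. The class median was -0.45 at day 6 and -2.01 at day 12.

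The 4 genes of anaphase entry fell at both days and by similar amounts. CDC20, the activator of the anaphase-promoting complex (chr1:43358955-43363203), went from 108, 114 and 129 CPM in vehicle to 29.1, 37.04 and 32.7 CPM in treated libraries at day 12 (-1.83 ± 0.08). UBE2C, the conjugating enzyme of that complex, changed by -2.005 ± 0.10. PTTG1, the securin that restrains separase, changed by -2.21 ± 0.08 and ESPL1, separase itself, by -1.87 ± 0.06. At day 6 the order differed: ESPL1 had fallen most (-0.44), and CDC20, PTTG1 and UBE2C stood at -0.30, -0.30 and -0.25. The day 6 call of CDC20 was lost in 4 of 22 other analyses and that of UBE2C in 12. The authors' table and the length offset were among them for both.

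The 11 centromere and kinetochore genes spread widely. At day 12 all 11 were lower, from -2.53 for NUF2 to -0.99 for CENPK, and at day 6 there were 8 called lower and 3 not called. NDC80 and NUF2 form the arm of the Ndc80 complex that grips microtubules. NUF2 (chr1:163266576-163355764) had 62.2, 59.6 and 58.9 CPM in vehicle and 47.6, 48.02 and 47.2 CPM in treated libraries at day 6. At day 12 it had 81.4, 74.9 and 63.5 CPM in vehicle and 12.6, 14.4 and 10.96 CPM in treated libraries, 5.79-fold lower with no overlap (-2.53 ± 0.10, edgeR adjusted p = 2.24e-11). NDC80 was close to it, at -0.32 ± 0.08 and -2.49 ± 0.09.

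SPC24 and SPC25, the pair that anchors the same complex in the kinetochore, had smaller falls at day 12, a difference between genes that was not tested. SPC24 (chr19:11131520-11155808) went from 30.4, 27.8 and 29.3 CPM to 8.03, 9.55 and 6.74 CPM, -1.84 ± 0.12, although its day 6 value of -0.50 ± 0.11 was larger than that of NUF2 or NDC80. For SPC25 (chr2:168834132-168913371) the reads that could be summed held only 0.18 of the level in the authors' table, so its values are taken from that table. Those normalized values were 752, 764 and 697 in vehicle and 534, 554 and 536 in treated libraries at day 6. At day 12 they were 673, 842 and 719 in vehicle and 207, 252 and 222 in treated libraries, without overlap at either day. On the log2(value + 1) scale, limma on the authors' table gave -0.44 ± 0.11 at day 6 and -1.71 ± 0.11 at day 12, both called, while the partial reads gave -0.08 ± 0.37 (not called) and -1.36 ± 0.40 (called).

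Centromere genes also differed in timing. CENPE, a kinesin that carries chromosomes to the spindle equator (chr4:103105806-103198409), fell late. It had 193, 165 and 162 CPM in vehicle and 155, 168 and 169.6 CPM in treated libraries at day 6, overlapping, and -0.08 ± 0.08 on the log2 scale (edgeR adjusted p = 0.516). By day 12 it had 274, 253 and 212 CPM in vehicle and 47.6, 48.6 and 46.5 CPM in treated libraries, 5.18-fold lower (-2.37 ± 0.09). The difference between its 2 effects, -2.29 ± 0.12 (adjusted p = 3.77e-09), was the largest of the 58 on these reads. Those of CKAP2L (-2.20 ± 0.14), NUF2 (-2.19 ± 0.14) and ASPM (-2.18 ± 0.10) lay within its error. In other analyses the difference for CENPE ran from -2.40 to -2.05. That difference includes a rise of CENPE in vehicle between the days, by 0.51 on the log2 scale. The call of this rise was lost in 2 of 22 other analyses. CENPF, a large coat protein of kinetochores, had -0.19 and -2.28, though its day 6 call was lost in 11 of 22 other analyses. The day 6 value of CENPF was 8.49% of its day 12 log2 value from reads but 15.8% on the authors' table. For CENPE these shares were 3.28% and 6.84%. CENPA, the centromeric histone, CENPM, a subunit of the inner kinetochore, and SPC24 moved early, with -0.50, -0.57 and -0.50 at day 6 and -1.89, -2.13 and -1.84 at day 12. HJURP, the chaperone that loads CENP-A, had -0.24 and -2.08, and KNL1, the platform for BUB proteins, -0.40 and -2.31. The day 6 call of HJURP was lost in 15 of 22 other analyses. On the authors' table, 34 members were called lower at day 6, and the calls of TTK, INCENP, NDC80, NUF2 and KNL1 were among those lost there. Calls were fewer over all genes too, with 1589 of 14618 lower at day 6 on that table against 2558 of 15024 from reads.

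CENPK, another subunit of the inner kinetochore (chr5:65517766-65563171), had the highest log2 value of all members at day 6. Its vehicle libraries stood at 70.9, 56.3 and 63.2 CPM and its treated libraries at 73.8, 71.8 and 71.8 CPM, each above every vehicle library, but the value of 0.19 ± 0.10 was not called (edgeR adjusted p = 0.174). At day 12 the vehicle libraries stood at 85.6, 82.8 and 65.3 CPM and the treated libraries at 36.1, 43.3 and 38.1 CPM, a fall of 1.99-fold (-0.99 ± 0.11, adjusted p = 1.11e-06). The day 12 fall was smaller than those of 55 members and larger than that of BUB3.

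The 7 kinesins formed a tight class, from -2.35 to -1.94 at day 12. KIF11, the motor that pushes spindle poles apart (chr10:92593286-92655395), went from 219.9, 218 and 214 CPM to 166, 166 and 166 CPM at day 6 and from 256, 238 and 218 CPM to 46.7, 58 and 46.5 CPM at day 12. Its groups did not overlap, with log2 fold changes of -0.39 ± 0.07 and -2.23 ± 0.08. KIF4A and KIF20A, motors of the central spindle, reached -2.35 and -2.17, KIF2C, which depolymerizes microtubules at centromeres, -2.15, and KIF18A, which damps chromosome oscillation, -1.94. KIF14 and KIF23, both needed for abscission, had -2.24 ± 0.10 and -2.14 ± 0.09 at day 12 and were the 2 kinesins not called at day 6, at -0.18 ± 0.09 and -0.21 ± 0.08. KIF23 was called at day 6 in 4 of 22 other analyses. The day 6 call of KIF20A was lost in 5 and that of KIF18A in 3.

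Of the spindle-associated proteins, the largest fall at day 12 was that of ASPM, which focuses spindle poles (chr1:197084128-197146694). It went from 295, 259 and 274 CPM to 213, 216 and 237 CPM at day 6 and from 364, 356 and 311 CPM to 59.5, 65.9 and 57.6 CPM at day 12, without overlap, at -0.31 ± 0.07 and -2.49 ± 0.08. CKAP2L, a microtubule protein, reached -2.45 ± 0.10, within the error of ASPM, and DLGAP5, which stabilizes kinetochore fibres, -2.30. PRC1, the bundler of the central spindle, TPX2, the activator of Aurora A, and HMMR, a spindle pole protein, reached -2.16, -2.14 and -2.08. At day 6 PRC1, TPX2 and ASPM were called and CKAP2L, DLGAP5 and HMMR were not, with HMMR at -0.08 ± 0.07 and overlapping groups. CKAP2L, at -0.25 ± 0.09 (edgeR adjusted p = 0.0545), was called in 7 of 22 other analyses and DLGAP5 in 1. The cytokinesis pair fell at both days: ANLN, which scaffolds the contractile ring, by 0.28 and 2.34, and ECT2, which activates RhoA there, by 0.31 and 2.02 on the log2 scale. Their day 6 calls were lost in 7 (ANLN) and 2 (ECT2) of 22 other analyses.

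The subunits of condensin, the ring complex that compacts chromosomes, did not move as a unit. SMC4 (chr3:160399274-160434962), shared by both condensins, stood at 738, 673 and 697 CPM in vehicle and 484, 479 and 476 CPM in treated libraries at day 6. At day 12 it stood at 918, 835 and 752 CPM in vehicle and 158, 167 and 167 CPM in treated libraries, 5.08-fold lower, and the groups were apart at both days (-0.55 ± 0.06 and -2.35 ± 0.06). Its partner SMC2 (chr9:104094260-104141417) stood at 447, 391 and 417 CPM in vehicle and 386, 409.9 and 404 CPM in treated libraries at day 6, overlapping, with -0.07 ± 0.08 (edgeR adjusted p = 0.564). SMC2 then went from 544, 483 and 421 CPM to 153, 176 and 159 CPM at day 12, a fall of 2.96-fold (-1.57 ± 0.08). Of the subunits of condensin I, NCAPH and NCAPG fell like SMC4 at day 12 (-2.25 and -2.20) and NCAPD2 less (-1.76 ± 0.04). SGO1, the shugoshin that shields centromeric cohesin, was not called at day 6 (-0.13 ± 0.11) and fell by 2.24 at day 12, from 32.8, 31.2 and 31.4 CPM to 7.27, 7.64 and 5.23 CPM.

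Most of the fall came after day 6. The effect was more negative at day 12 than at day 6 for 56 of 58 members by the test of the difference, against 25.1% of all tested genes, and more positive for 1 (CDC25B) against 22.6%. The median difference was -1.82 on the log2 scale. SPC25 was the member not called on its partial reads, and limma on the authors' table gave -1.26 ± 0.15. Of the members, 43 fell at day 6 and again further by day 12, and 14 were not called at day 6 and fell at day 12, 1 of them (SPC25) without a called difference. As a share of the day 12 log2 value, the day 6 value had a median of 15.2% over all members, with SPC25 from the authors' table, and of 16.4% with every member from that table. SPC24 (26.9%), CENPM (26.8%), CENPA (26.4%), SPC25 (26.0% on the authors' table) and FOXM1 (24.4%) had high shares, and on the authors' table SPC24, CENPM, CENPA and FOXM1 stood at 37.3%, 24.0%, 22.3% and 21.8%. ESPL1 (23.4%), SMC4 (23.5%) and AURKB (23.1%) were close to these, with 25.1%, 24.1% and 23.0% on the authors' table. On that table NCAPD2 (27.1%), MAD2L1 (26.5%), PLK4 (25.4%), NCAPH (24.8%) and BUB1B (23.9%) also exceeded CENPA and FOXM1. From reads these genes had 14.7%, 21.1%, 18.9%, 21.5% and 17.9%. INCENP had 29.4% from reads but 14.3% on the authors' table. CENPE (3.28%), HMMR (3.67%) and SMC2 (4.19%) had low shares, which were 6.84%, 4.40% and 6.68% on the authors' table. CDC25C (1.06%) and SGO1 (5.84%) were also low, with 6.13% and 5.01% on that table. Class medians of this share ran from 11.4% to 21.5% from reads and from 13.3% to 21.9% on the authors' table, with a different order of the classes, so no order is given.

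Across the 57 members with complete reads, the day 6 and day 12 log2 fold changes had a Pearson r of 0.41 and a Spearman rho of 0.24. Without CDC25B, BUB3 and CENPK, left out after their values were seen, r was 0.21 and rho 0.13 over 54 members. These are descriptions across genes that share the same libraries, and genes are not independent replicates.

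The drift of these genes in vehicle culture was small and less certain. Between day 6 and day 12 of vehicle, 17 of 58 members rose, 0 fell and 41 were not called, against 5.96% of all tested genes that rose and 7.15% that fell. The members' median was 0.16 on the log2 scale. The largest was CENPE, with 0.51 ± 0.08 (edgeR adjusted p = 0.00567), whose 3 vehicle libraries at day 12 all lay above those at day 6. SGO1 followed at 0.39 and ANLN at 0.38. The count fell to 0 when only the vehicle libraries were fitted or transcript lengths were modelled and to 1 on the authors' table, was 1 without day 6 vehicle library 2 or 3 or day 12 vehicle library 1 or 2, and rose to 29 without day 12 vehicle library 3. Over all tested genes, 896 of 15024 rose, against 5 of 13867 with only the vehicle libraries fitted and 46 of 15024 with transcript lengths modelled. The number was 70 of 14618 on the authors' table and 2147 of 15407 without day 12 vehicle library 3. Calls over all genes thus moved with those of the members. The treatment effect at day 12 was measured against these vehicle libraries, and its count of 57 lower members did not change when any 1 library was left out.

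Levels of different genes were compared per length, in TPM, Salmon's length-corrected share of transcripts, for 57 members, without SPC25. In day 12 vehicle the TPM ran from 13.5 for CDC25C to 465 for SMC4, with a median of 85.8. BUB3 (284 ± 12.01 TPM), TPX2 (282 ± 13.3 TPM) and TOP2A (279.6 ± 16.2 TPM) came after SMC4 (465 ± 66.1 TPM), and those 3 did not differ beyond their spread. With EPZ011989 at day 12 the median was 22.4 TPM and the order at the top changed: BUB3 led with 205 ± 8.43 TPM, followed by CDC25B with 183 ± 15.01 TPM, CENPK with 100.05 ± 10.1 TPM and SMC4 with 96.2 ± 10.8 TPM. CDC25B and CENPK had been 11th and 10th in vehicle. Between log2 TPM in vehicle and the day 12 log2 fold change, r was 0.25 and rho 0.28 over the 57 members, again as a description across genes.

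**Figure D3:**
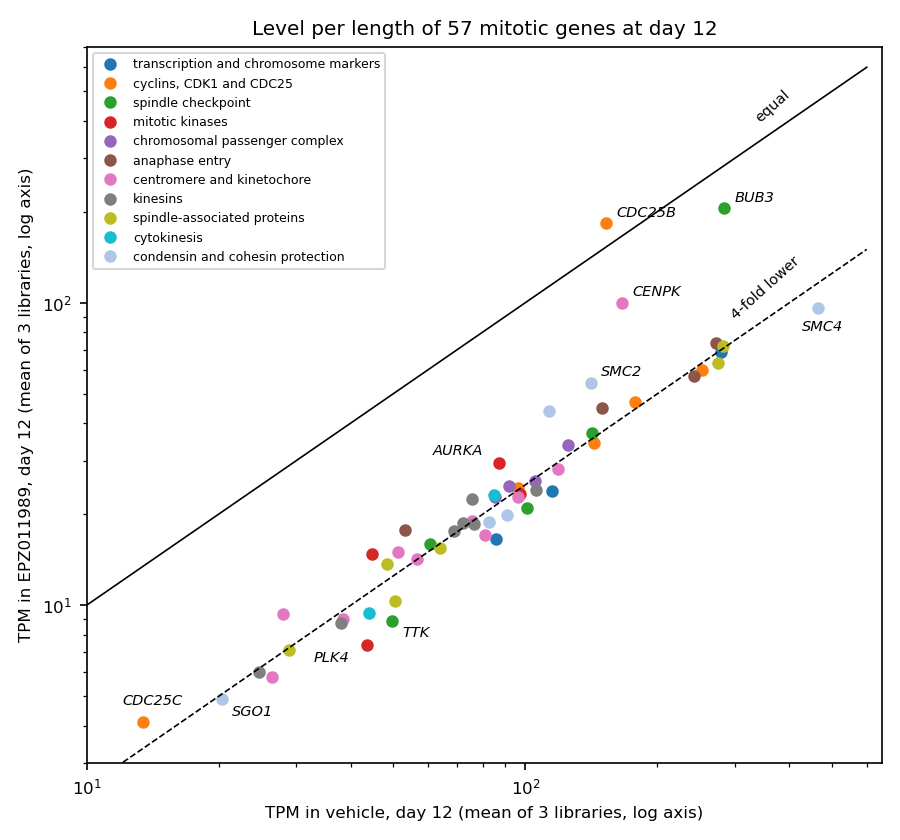
Mean TPM of 57 members in day 12 vehicle (x) and day 12 EPZ011989 (y), both on log axes, coloured by class, with lines for equal levels and for a 4-fold lower level. Most members lie near the 4-fold line over the whole range of levels, and CDC25B, BUB3 and CENPK lie apart from it.

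Other genes of the same machinery fell less uniformly, and their counts are to be read against the 33.2% of all tested genes that fell and the 33.7% that rose at day 12. Of 29 further centromere and kinetochore genes, 27 fell, 1 rose and 1 was not called at day 12, with a median of -1.54. SKA3, of the Ska complex that follows depolymerizing microtubules, went from 45.5, 44.9 and 43.5 CPM to 5.53, 6.74 and 7.64 CPM (-2.75 ± 0.10). Its partner SKA1, whose reads were partial, had -2.39 by limma on the authors' table. CENPT, the other anchor of the Ndc80 complex, had 0.07 ± 0.06, not called, and MAD1L1, which recruits MAD2 to kinetochores, rose by 0.35 ± 0.08, a call not made on the authors' table.

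Of 16 cohesin and condensin II genes, 14 fell, 1 rose and 1 was not called, and the median of -0.93 was smaller than that of the condensin class above. CDCA5, sororin, which protects cohesin, fell by 2.23 on the log2 scale, from 105, 109.6 and 109.9 CPM to 21.2, 24.7 and 23.3 CPM, and SGO2, a shugoshin, by 2.11. The cohesin loader subunit NIPBL had -0.09 ± 0.06, not called, and its partner MAU2 rose by 0.50 ± 0.08. Genes of the anaphase-promoting complex had a median of -0.33: 10 of 17 fell, 4 rose and 3 were not called, against the 33.2% and 33.7% of all genes. The falls were led by 2 regulators, the inhibitor FBXO5 (-2.31 ± 0.09) and the conjugating enzyme UBE2S (-1.06 ± 0.07), while the subunit ANAPC16 rose by 0.34 ± 0.06. FZR1, the activator that works after CDC20, had 0.67 ± 0.13 on partial reads and 0.16, not called, on the authors' table.

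Of 25 other mitotic kinesins and spindle proteins, 21 fell, 3 rose and 1 was not called, with a median of -1.40. NUSAP1, a microtubule bundler, fell from 393, 335 and 285 CPM to 37.9, 41.2 and 41.6 CPM (-3.07 ± 0.12, and -2.46 on the authors' table), and the motor KIF15 by 2.62 on the log2 scale. NEDD1, which brings gamma-tubulin to the spindle, rose by 0.73 ± 0.08 and CLASP1, a microtubule stabilizer, by 0.67 ± 0.05. In centrosome duplication 9 of 11 fell, 1 rose and 1 was not called: the centriole assembly genes CENPJ (-1.74) and STIL (-1.72) fell, and CETN2, centrin, rose from 25.2, 21.1 and 19.8 CPM to 52.9, 50.2 and 44.7 CPM (1.16 ± 0.10). NIN, ninein, had 0.05 ± 0.10 on partial reads, not called, and 0.34 on the authors' table.

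Of 17 regulators of mitotic entry and exit, 14 fell, 0 rose and 3 were not called, with a median of -1.48. MELK, a mitotic kinase, fell by 2.55 and WEE1, the kinase that restrains CDK1, by 2.43 on the log2 scale, while PPP2R2D (-0.10 ± 0.07) and CDC14B (0.10 ± 0.08) were not called. Among the other cytokinesis genes, 11 of 12 in the list had reads enough to be tested. Of these, 10 fell and 1 was not called, from -2.41 for CEP55, an abscission factor, and -2.25 for DEPDC1 to -0.19 ± 0.05 for CHMP4B, a membrane-cutting ESCRT subunit, with SEPTIN2 at 0.08 ± 0.05, not called.

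All 32 DNA replication genes, which act before mitosis, fell at day 12 with a median of -1.90, and 27 had fallen at day 6 with a median of -0.36, close to the members' own medians. ORC1, of the origin recognition complex, fell by 2.51 on the log2 scale and RRM2, the ribonucleotide reductase subunit, had -2.44 on the authors' table, its reads being partial. POLD1, a replicative polymerase, and RFC2, of the clamp loader, fell least, at -1.34 ± 0.08 and -0.996 ± 0.09.

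**Figure D4:**
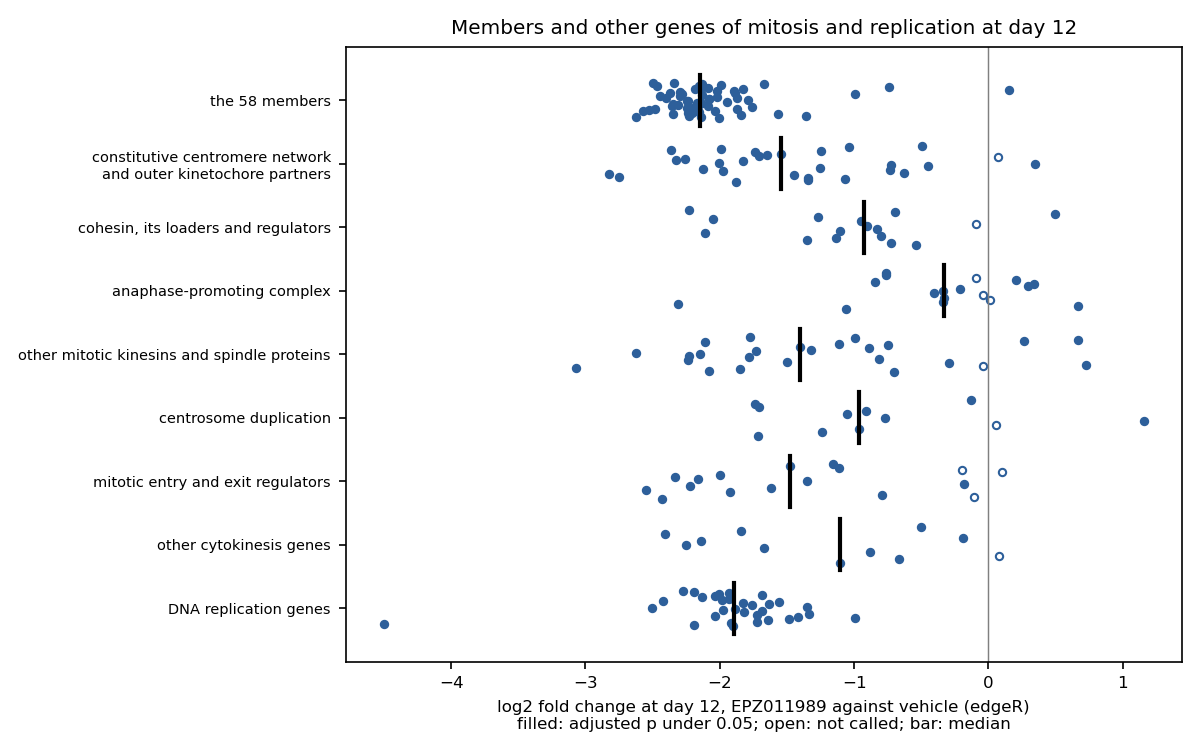
Log2 fold change at day 12 (x axis) of every tested gene of the 58 members and of 8 further lists, with filled points for genes called at an adjusted p under 0.05, open points for the rest and a bar at each median. Members gather between -2.62 and -1.5 with 4 exceptions, the DNA replication genes have a median of -1.90, and the anaphase-promoting complex, at -0.33, lies nearest to 0. The lowest point is RRM2, whose reads were partial.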

How the data were processed

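PolyA-selected RNA of 12 libraries was sequenced. The authors deposited estimated counts of reads per transcript and TPM values for each library, and the submitters' processing notes list Salmon 1.2.0, FastQC, DESeq2 and hg38. A table of normalized gene signal for the whole series was also deposited, with a scaling that no label or header states. The members and lists were chosen with earlier results of these data known.

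Estimated reads were summed per gene by the transcript identifiers of GENCODE release 29, with symbols from a gene name table, and rounded. Between 3.08% and 3.58% of reads lay on transcripts without a match. Testing used edgeR's quasi-likelihood method (edgeR 4.0.16, R 4.3.3) with TMM scaling and filterByExpr in 1 fit of the 4 groups, tested on simulated data. The biological coefficient of variation was 10.1%. A level of 3 reads was 0.148 to 0.194 CPM. TPM was summed per gene. Where the summed reads held under 0.8 of the level in the authors' table, the gene was called partial. Replicates of each group differed by more than counting noise.

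All members were named, and from each further list the 2 lowest and 2 highest log2 fold changes at day 12. Alternatives were DESeq2 1.42.0 (test and size factors), library totals, 2 other filters, only the libraries of a contrast, a transcript length offset, limma 3.58.1 on the authors' table with a pseudocount of 1 or 5, stricter calls, a replicate block and leaving out each library.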

Additional observations from a re-analysis of the deposited data

Results flagged for a closer look

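The effect of EPZ011989 differed between day 6 and day 12, by the test of the difference, for 57 of the 58 members: it was more negative at day 12 for 56 and more positive for 1, CDC25B. By class, the effect was more negative at day 12 for all 3 transcription and chromosome markers, all 5 checkpoint genes, all 4 mitotic kinases, all 4 passenger complex genes, all 4 anaphase entry genes, all 7 kinesins, all 6 spindle-associated proteins, both cytokinesis genes (2) and all 6 condensin and cohesin protection genes. It was more negative for 10 of 11 centromere and kinetochore genes, with SPC25 not called, and for 5 of 6 cyclin, CDK1 and CDC25 genes, with CDC25B the 1 more positive.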

How the results depend on the processing

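Of 58 members, 56 kept their day 12 call in all 22 alternative fits and 57 that of the difference between days in all 21. For day 6, 35 kept it in all 22 fits, and for vehicle over time 26. Stricter calls are not among these fits. Members that stayed not called count as kept, and the 35 include some of these, such as BUB3. Each rise called in vehicle was lost in at least 1 fit, so the 26 were all members not called there. CDC25B and SPC25 were the 2 whose day 12 call was lost in some fits. The median at day 12 was -2.07 with library totals in place of TMM, and every scaling moved the median of all genes by under 0.1. With only the contrast's libraries, 1 member was higher at day 6. The count of members higher at day 12 was 0 with the length offset, with the authors' table at either pseudocount, at an adjusted p under 0.01 and at 2-fold. Requiring 2-fold left 0 members lower at day 6, 0 with a more positive difference and 0 higher in vehicle. Between the vehicle days, higher members numbered 26 with DESeq2, 0 with only the vehicle libraries, 0 with the length offset, 1 with the authors' table at either pseudocount and 1 at an adjusted p under 0.01. Higher calls over all genes between those days also rose with DESeq2, to 1454 of 15024 from 896. They fell with the vehicle libraries alone, the length offset and the authors' table. Lower members there numbered 1 without the filter and 1 with DESeq2, and the median was 0.0791 with the length offset, 0.0757 with the authors' table at a pseudocount of 1 and 0.0756 at 5. HMMR reversed there, from 0.25 to -0.10 with the length offset and to -0.10 with the authors' table at either pseudocount. The cause was not tested. Counting bases before the start alone, 59.2% of matched members held TTTGAA or TTCGAA.

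Leaving out each library in turn, lower members at day 6 numbered 35 to 47 and at day 12 57 each time. The 35 came without day 6 vehicle library 1, where 2038 of 15400 genes were lower. The 47 came without day 12 vehicle library 1, where 2960 of 15396 were. Over all runs, genes lower at day 6 numbered 1601 to 2960. Higher members numbered 0 to 1 at day 12 (0 without day 12 vehicle library 2), and 1 to 29 with 0 to 3 lower between the vehicle days. Runs with 1 member higher between those days had 93 to 209 genes higher, and the run with 29 had 2147. The median difference ran from -1.90 (without day 12 treated library 2) to -1.78. Same-numbered libraries of different groups correlated at -0.06 to 0.13 in their deviations, and 5 of 12 matched their own number best, so the numbers were not treated as a pairing. With the replicate block, 1 member was lower between the vehicle days, and 47 were lower at day 6 and 57 for the difference.
The 9 members without a promoter window were not part of the motif counts.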
